A study of Mus musculus with 6 samples.

Results

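The genes described here were 10 markers used to tell dermal fibroblast subtypes apart: Pi16, Dpp4, Ly6a and Cd34 for adventitial and fascial fibroblasts, Crabp1, Lrig1 and Pdpn for upper dermal (papillary) fibroblasts, Thy1 and S100a4 for fibroblasts more broadly, and Fap for activated fibroblasts. They were taken by symbol from the 55487 gene identifiers of the count table, and were chosen with earlier results of these data known. All 10 were among the 19015 genes with enough counts to be tested. Their RNA was measured by bulk polyA RNA-sequencing in 6 cultures prepared from the skin of C57BL/6 mice, for which the source of each preparation was 4 to 6 pooled mice aged 2 to 3 months. Digested skin was enriched with beads against CD31, an endothelial surface protein, and the labels call the cells endothelial cells (ECs). In 3 cultures the medium held normal glucose (5 mmol/L), and in the other 3 it held high glucose (20 mmol/L), in both cases for 48 hours. The study set these conditions side by side to ask how ECs respond to a diabetic glucose concentration. The labels name no transgene or deletion in either group, and the methods of the study give passages 1 to 6 for such cells.

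Skin fibroblasts are not uniform. Fibroblasts of the fascia and of the adventitia around vessels carry Pi16, Dpp4, Ly6a and Cd34 and are described as a reserve population, papillary fibroblasts lie under the epidermis and signal to hair follicles, reticular fibroblasts lay down the thick collagen of the lower dermis, and activated fibroblasts appear in wounds and tumor stroma. Several of these markers are not restricted to fibroblasts: Cd34 and Ly6a are also carried by capillary ECs and progenitor cells, Pdpn by lymphatic ECs, Thy1 by T cells and neurons, and S100a4 by leukocytes.

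Most of the markers that define ECs were close to absent. Pecam1, which encodes CD31, was close to 0, with counts of 19, 12 and 19 in the normal-glucose cultures and of 9, 13 and 18 in the high-glucose cultures, out of 120192466 to 146881356 total counts per culture. Sox17, an endothelial transcription factor, had 0 counts in all 6 cultures, and the summed level of all 16 endothelial markers was 74.0 to 77.2 CPM (counts scaled to a common library total with TMM factors) in normal glucose and 57.2 to 57.8 CPM in high glucose. The receptor gene Flt1 made up most of this sum, with means of 55.3 CPM in normal glucose and 38.4 CPM in high glucose. Egfl7 (11.1 and 9.44 CPM) and Kdr (4.96 and 5.50 CPM) came next. The summed level of 14 genes shared by most fibroblasts, such as the collagen genes Col1a1 and Col3a1, was 44611 to 48218 CPM in normal glucose and 77210 to 82015 CPM in high glucose. The labelled cell type was therefore not borne out by most of its markers, and the cultures are called here by their glucose group. A floor of 3 counts corresponded to 0.0211 to 0.0258 CPM.

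Of the 10 markers, 2 were higher in high glucose, 7 were lower and 1 was not called. Pi16 rose 5.79-fold and Fap 1.90-fold, and Crabp1, S100a4 and Cd34 had the largest falls, of 1.52, 1.27 and 0.99 on the log2 scale. Calls came from edgeR's quasi-likelihood test at an adjusted p under 0.05. In the same test 16.9% of all tested genes were called higher, 14.5% were called lower and 31.4% were called in either direction. The median log2 fold change of the 10 markers was -0.53, against 0.0062 over all tested genes. The 3 values of one group lay wholly above or below the 3 of the other for 10 of the 10 markers, compared with 46.4% of all tested genes. With 3 cultures against 3, an exact two-sided permutation test cannot give a p below 0.1, and it gave 0.1 for each marker. In bulk RNA, fewer cells of a type and less RNA per cell cannot be told apart.

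**Figure D1:**
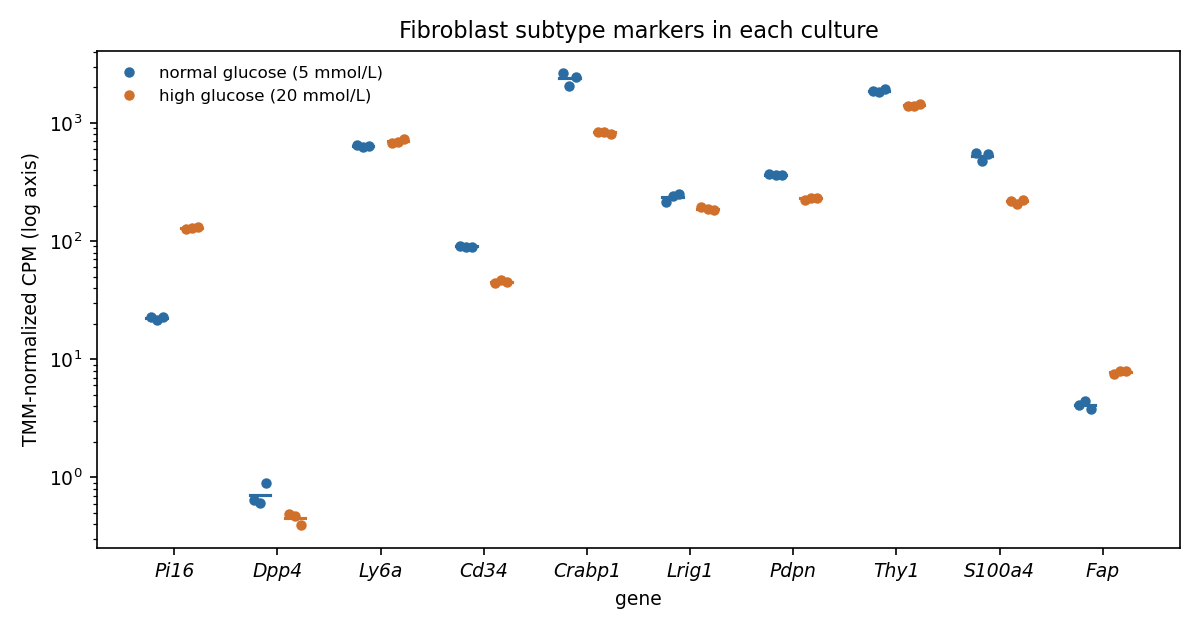
TMM-normalized CPM (log axis) of the 10 markers in each of the 3 normal-glucose and 3 high-glucose cultures, with bars at the group means. Pi16 moves from 22.3 to 129 CPM, Crabp1 from 2382 to 831 CPM, and Dpp4, below 1 CPM, has the widest spread relative to its mean.

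The adventitial markers went different ways. Pi16 (ENSMUSG00000024011, chr17:29317680-29330593, plus strand, GRCm38), a secreted protein with a CAP domain that was named as a peptidase inhibitor, was at 22.8, 21.4 and 22.7 CPM in normal glucose and at 127, 130 and 131 CPM in high glucose. Every high-glucose culture was thus far above every normal-glucose culture, and the spread within a group was small, 3.61% of the mean in normal glucose and 1.64% in high glucose. The log2 fold change was 2.53 ± 0.054 (SE), with a 95% interval of 2.41 to 2.65 and an adjusted p of 5.93e-09. Only 20 of the genes called higher had a larger fold change. Between 2860 and 3032 counts lay behind the normal-glucose values and between 15074 and 17986 behind the others, and the antisense gene whose exons overlap those of Pi16 had at most 4 counts.

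Dpp4 (ENSMUSG00000035000, chr2:62330073-62412231, minus strand) encodes CD26, a cell-surface peptidase that trims dipeptides from incretins and chemokines. It was nearly silent, with counts of 81, 86 and 114 in the normal-glucose cultures and of 69, 55 and 53 in the high-glucose cultures. All the normal-glucose values lay above all the high-glucose values, and the highest of the 6, normal glucose replicate 3, stood apart from the other two of its group. On the CPM scale the means were 0.714 ± 0.154 (SD, n = 3) and 0.451 ± 0.0504. The log2 fold change was -0.66 ± 0.198 (SE), and the adjusted p of 0.0284 was the weakest of the called markers. The call ended when replicate number was a block (-0.65, adjusted p = 0.0620) and without normal glucose replicate 3 (-0.48, adjusted p = 0.102) or high glucose replicate 1 (-0.74, adjusted p = 0.0516), 2 (-0.71, adjusted p = 0.0551) or 3 (-0.59, adjusted p = 0.104). The sign was negative in each of these fits.

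Ly6a (ENSMUSG00000075602, chr15:74994877-74998031, minus strand), the GPI-anchored protein Sca-1, was abundant in all cultures. It was at 646, 630 and 644 CPM in normal glucose and at 676, 696 and 734 CPM in high glucose, a small gap with no overlap between the groups. Its log2 fold change was 0.13 ± 0.051 (SE), with a 95% interval of 0.020 to 0.248, and it was not called (adjusted p = 0.0723). The value was sensitive to scaling: with library size alone it was 0.019 (adjusted p = 0.792), under which the median of all genes moved to -0.11, and with a trend on GC content and length removed it was 0.22 and was called (adjusted p = 0.00292). Ly6a belongs to a family of similar genes, and how reads shared with other Ly6 genes were assigned is not given in the sources used here.

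Cd34 (ENSMUSG00000016494, chr1:194938819-194961279, plus strand) encodes a sialomucin of the cell surface. Its levels were 91.2, 89.9 and 89.7 CPM in normal glucose and 44.3, 46.7 and 45.1 CPM in high glucose. The groups were far apart relative to their spread of 0.921% and 2.70% of the mean. The log2 fold change was -0.99 ± 0.049 (SE, adjusted p = 2.99e-07), and thus 2 adventitial markers were lower, 1 was higher and 1 was not called.

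The papillary markers were all lower in high glucose. Crabp1 (ENSMUSG00000032291, chr9:54764748-54773110, plus strand), a cytosolic carrier of retinoic acid, was at 2630, 2072 and 2443 CPM in normal glucose and at 844, 843 and 807 CPM in high glucose. Normal glucose replicate 2 was the lowest of its group, and it was still far above the high-glucose cultures. The log2 fold change was -1.52 ± 0.081 (SE), with a 95% interval of -1.70 to -1.34 and an adjusted p of 5.03e-07. Crabp1 was spread more widely in normal glucose (11.9% of the mean) than in high glucose (2.56%).

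Lrig1 (ENSMUSG00000030029, chr6:94604529-94700158, minus strand) encodes a membrane protein that restrains signaling by EGF receptors. It was at 215, 243 and 252 CPM in normal glucose and at 195, 186 and 185 CPM in high glucose, and its lowest normal-glucose culture was near the highest high-glucose culture. The log2 fold change of -0.33 ± 0.065 (SE, adjusted p = 0.00339) was the smallest in size among the 9 called markers, and 1927 genes called lower had a larger fall. Pdpn (ENSMUSG00000028583, chr4:143267431-143299564, minus strand) encodes podoplanin, a mucin-type ligand of the platelet receptor CLEC-2. Its values were 368, 363 and 365 CPM in normal glucose and 224, 233 and 232 CPM in high glucose, well separated, with a log2 fold change of -0.67 ± 0.048 (SE, adjusted p = 3.72e-06).

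The broad markers were lower as well. Thy1 (ENSMUSG00000032011, chr9:44043384-44048579, plus strand), the GPI-anchored protein CD90, was at 1851, 1838 and 1946 CPM in normal glucose and at 1404, 1394 and 1459 CPM in high glucose. The 2 ranges were separate, and the log2 fold change was -0.40 ± 0.051 (SE, adjusted p = 1.78e-04). S100a4 (ENSMUSG00000001020, chr3:90603771-90606045, plus strand) encodes a small calcium-binding protein also called FSP1. It was at 553, 480 and 541 CPM in normal glucose and at 220, 207 and 224 CPM in high glucose. Every normal-glucose value was above every high-glucose value by a wide margin, and the log2 fold change was -1.27 ± 0.066 (SE, adjusted p = 3.83e-07). Of the S100a4 exons, 302 bases are shared with Gm42674 on the same strand, a gene model with at most 13 counts.

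Fap (ENSMUSG00000000392, chr2:62500943-62574075, minus strand), the serine protease fibroblast activation protein, was low but measurable, at 4.10, 4.46 and 3.81 CPM in normal glucose and at 7.51, 8.01 and 7.99 CPM in high glucose. All the high-glucose cultures were above the normal-glucose cultures, with 931 to 1077 counts against 488 to 632. The log2 fold change was 0.93 ± 0.087 (SE), with a 95% interval of 0.73 to 1.12 and an adjusted p of 2.52e-05. Fap and Dpp4 are close relatives in sequence and function and lie near each other on chromosome 2, on the same strand. The 4 other genes annotated in this stretch, Gm13561, Gm13565, Gm13564 and Gcg, had at most 2 counts in any culture. Thus the neighbors had log2 fold changes of opposite sign, 0.93 for Fap and -0.66 for Dpp4, and the ratio of Fap to Dpp4 counts was 5.99 ± 1.56 (SD, n = 3) in normal glucose and 17.6 ± 2.50 in high glucose.

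**Figure D2:**
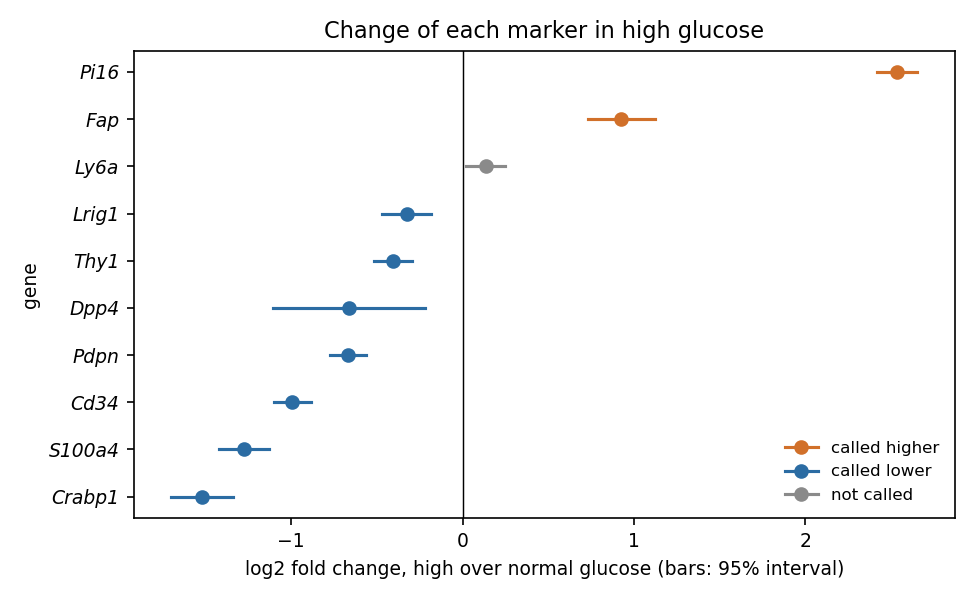
Log2 fold change of the 10 markers, high over normal glucose, from edgeR's quasi-likelihood fit of 3 against 3 cultures. Bars are 95% intervals and the vertical line marks no change. Pi16 lies alone at 2.53, the interval of Dpp4 is the widest, and the interval of Ly6a ends close to the line.

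Sequence upstream of the transcription start was examined for the markers with an entry in the RefSeq promoter table (GRCm38.p6), which were 7 of the 10. The sequences shown belong to the 3 markers with the largest changes, 1 that rose and 2 that fell. Each is the 120 bases ending just before the RefSeq start, written 5′ to 3′ on the gene's strand (plus for all of them), and capitals mark the letters of a searched motif.
Pi16, chr17:29318762-29318881: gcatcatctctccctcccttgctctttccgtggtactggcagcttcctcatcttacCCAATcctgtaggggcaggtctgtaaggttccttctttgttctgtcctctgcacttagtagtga
Crabp1, chr9:54764628-54764747: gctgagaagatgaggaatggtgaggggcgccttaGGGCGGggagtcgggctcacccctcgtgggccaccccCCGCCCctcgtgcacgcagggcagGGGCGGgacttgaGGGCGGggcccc
S100a4, chr3:90603650-90603769: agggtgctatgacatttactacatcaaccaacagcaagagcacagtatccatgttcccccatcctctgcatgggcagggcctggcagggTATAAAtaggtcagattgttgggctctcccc

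Both strands of the 250 bases before the start were searched for 5 motifs, none of which contains another. Among all 32851 promoters of the table, the letters TATAAA of the TATA box were found in 12.4%, the letters CCAAT of the CCAAT box in 33.8% and the letters GGGCGG of the GC box in 32.7%. The E-box, searched as CACGTG, was found in 6.02% of them, and the AP-1 motif, searched as TGANTCA, in 6.75%. Pi16 held 1 CCAAT box, from position -64 to -60. S100a4 held 1 TATA box, from -31 to -26, and Crabp1 held 5 GC boxes, of which 4 lie in the printed stretch and the fifth from -178 to -173. Crabp1 had 74.2% G or C in the printed stretch, S100a4 51.7% and Pi16 50.8%, against a median of 54.2% over all promoters. Among the other 4, Lrig1 held a CCAAT box and 2 GC boxes, Pdpn an E-box, Dpp4 a TATA box far from the start, from -227 to -222, and Cd34 none of these letters. The 6 markers among these that were lower in high glucose therefore did not all share a motif from this set, and a match is a description of the letters alone. The RefSeq start of Pi16 lies inside the gene as annotated by GENCODE, so the window is 1 of several possible.

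Levels of different genes were compared per length, as RPKM (CPM divided by the exon length in kilobases). Crabp1 had the highest RPKM of all 18994 ranked genes in normal glucose, 2970 ± 354 (SD, n = 3), and was 18th in high glucose, at 1037 ± 26.5. In normal glucose it was followed by S100a4 (899), Thy1 (627), Ly6a (531), Pdpn (201), Lrig1 (42.4), Cd34 (12.4), Pi16 (3.50), Fap (0.728) and Dpp4 (0.113). In high glucose the order became Crabp1, Ly6a (583), Thy1 (474), S100a4 (371), Pdpn (127), Lrig1 (33.8), Pi16 (20.3), Cd34 (6.22), Fap (1.38) and Dpp4 (0.0714). No neighbors in either order overlapped between cultures. Thus S100a4 passed from above Thy1 and Ly6a to below them, and Pi16 from below Cd34 to above it. Among all ranked genes, Pi16 went from rank 8383 to rank 2452 and Cd34 from 3827 to 6336. These ranks depend on the length used: with the longest transcript in place of all exons, Crabp1 was 2nd and 21st, in normal glucose Thy1 (1083 RPKM) lay above S100a4 (1054 RPKM), and in high glucose Thy1 (818 RPKM) lay above Ly6a (735 RPKM). With that length, then, Thy1 was above both S100a4 and Ly6a in both groups, and S100a4 still passed from above Ly6a to below it. Levels themselves moved as well, with Cd34 at 29.5 and Fap at 1.44 RPKM in normal glucose, and Pi16 still passed Cd34 (5.58 and 29.5 RPKM in normal glucose, 32.3 and 14.8 RPKM in high glucose).

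**Figure D3:**
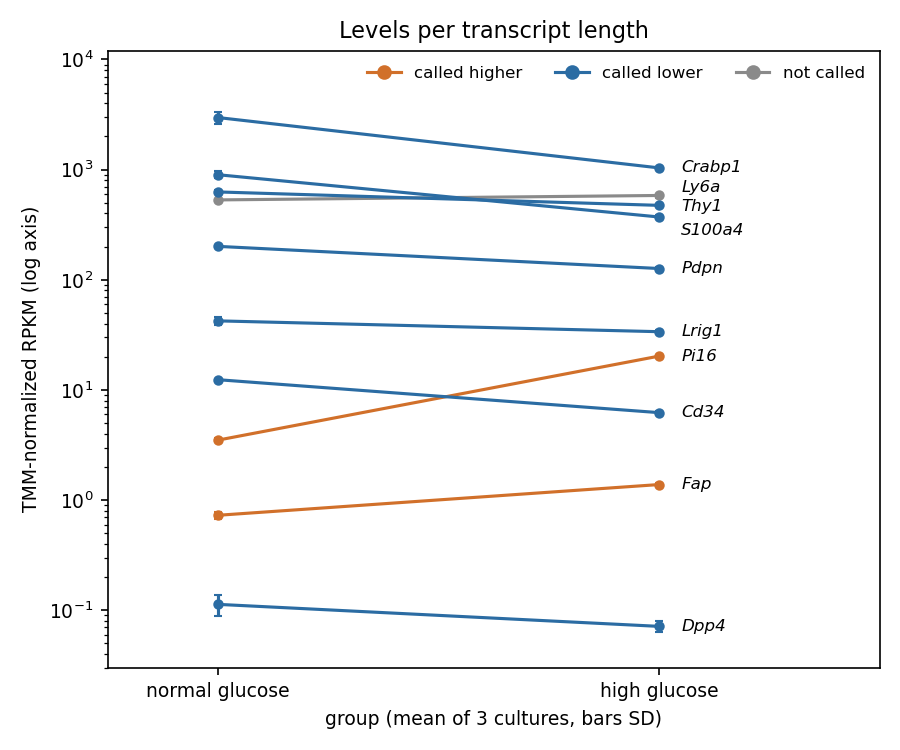
Mean TMM-normalized RPKM (log axis) of each marker in normal and high glucose, with SD over 3 cultures as bars and lines joining the groups of a gene. The line of Pi16, from 3.50 to 20.3, crosses that of Cd34, from 12.4 to 6.22, and the lines of S100a4, Thy1 and Ly6a cross near the top, where the place of Thy1 depends on the length used.

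Ratios of counts within a culture do not depend on the scaling between libraries. Pi16 counts were 0.00943 ± 0.000826 (SD, n = 3) of Crabp1 counts in normal glucose, against 0.155 ± 0.00621 in high glucose, a difference of 4.05 on the log2 scale. Ly6a counts were 0.341 ± 0.00928 of Thy1 counts in normal glucose, against 0.495 ± 0.0114 in high glucose, a log2 difference of 0.54. Fap counts were 0.00220 of Thy1 counts in normal glucose, against 0.00552 in high glucose. For each of these ratios the groups did not overlap, and the exact permutation p was 0.1, the smallest that 3 against 3 allows. Each ratio set a marker whose high-glucose values all lay above the normal-glucose values over one whose values all lay below. The lack of overlap thus followed from the values given above and adds no support of its own.

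Other markers of the same subtypes moved in both directions. Among 24 tested adventitial markers, 11 were higher, 8 were lower and 5 were not called, with a median log2 fold change of 0.24. Clec3b (tetranectin) rose from 2.48 to 7.62 CPM (log2 fold change 1.62), Adgrd1, an adhesion G protein-coupled receptor, from 46.3 to 118 CPM (1.34), and the matricellular gene Ccn3 from 38.3 to 86.0 CPM (1.17). Pcolce2, an enhancer of procollagen processing, fell by 1.33 on the log2 scale, the annexin gene Anxa3 by 0.93, and Cd55, which restrains complement, by 0.71. As with Pi16 against Cd34 and Dpp4, genes of the larger adventitial list were thus called in both directions. Over all tested genes 16.9% were called higher and 14.5% lower. The summed level of the adventitial list was 2766 to 2875 CPM in normal glucose and 4255 to 4290 CPM in high glucose. Of its genes, Gpx3 (644 to 1310 CPM) and Fbn1 (809 to 1246 CPM), named after their values were seen, had the largest rises in CPM.

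Among 11 tested papillary markers other than the 3 described, 6 were higher, 3 were lower and 2 were not called, with a median of 0.32. Wnt pathway genes were found on both sides: the Wnt inhibitor Apcdd1 rose from 38.7 to 63.2 CPM (log2 fold change 0.71) and the Wnt agonist Rspo1 from 29.3 to 43.4 CPM (0.57), and the Wnt antagonist Nkd2 fell from 92.2 to 57.5 CPM (-0.68). Axin2, a Wnt feedback gene, was called higher (0.42), but not without normal glucose replicate 3 (adjusted p = 0.0666), high glucose replicate 1 (0.0502) or high glucose replicate 3 (0.0764), nor with library size alone (0.0569). Prdm1, encoding the transcriptional repressor Blimp1, fell by 0.31. The netrin gene Ntn1 was called lower (-0.25), but not without normal glucose replicate 3 (0.0605) or high glucose replicate 2 (0.0506) or 3 (0.0528). The falls of Crabp1, Lrig1 and Pdpn were thus not shared by most of the list.

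Of 10 reticular markers 5 were higher and 3 were lower (median 0.23). The transglutaminase gene Tgm2 rose from 32.2 to 115 CPM (log2 fold change 1.84), the chemokine gene Cxcl12 from 1631 to 3923 CPM (1.27) and the secreted Wnt modulator Sfrp2 from 516 to 798 CPM (0.63). Mgp, an inhibitor of calcification, fell from 18.7 to 2.69 CPM (-2.79), and the smooth muscle genes Cnn1 (-1.02) and Ppp1r14a (-0.40) were lower too. Cxcl12 encodes a known substrate of the peptidase encoded by Dpp4.

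Among 17 tested dermal papilla markers 7 were higher and 4 were lower (median 0.14). Alpl, encoding tissue-nonspecific alkaline phosphatase, had a log2 fold change of 1.05, the proteoglycan gene Vcan 0.85 and the leptin receptor gene Lepr 0.82. Corin, a serine protease gene, fell by 0.98 and the R-spondin gene Rspo4 by 0.50. Sox2 was called lower (-0.32, adjusted p = 0.0485), but the call was lost when any 1 of the 6 cultures was left out (adjusted p = 0.0512 to 0.154) and when replicate number was a block (0.0905).

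The 13 activated fibroblast markers beside Fap were split evenly, with 6 higher, 6 lower and 1 not called (median 0.23). The matrix genes Col12a1 (log2 fold change 0.86) and Postn (0.80) and the metalloprotease gene Adam12 (0.82) were higher, as Fap was. Cthrc1, a secreted protein gene induced in scarring, fell by 1.44, Lrrc15, a membrane marker of tumor-associated fibroblasts, by 0.81, and the cytokine gene Il11 by 0.66.

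Of the 14 genes shared by most fibroblasts, 9 were higher and 2 were lower, with a median of 0.38. Col3a1 and Col1a1 (log2 fold changes 1.39 and 0.76) and the fibulin gene Fbln1 (0.67) were higher, and the intermediate filament gene Vim (-0.50) and the transcription factor gene Twist2 (-0.70) were lower. The broad markers Thy1 and S100a4 thus had the sign of Vim and Twist2 rather than that of the collagens.

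**Figure D4:**
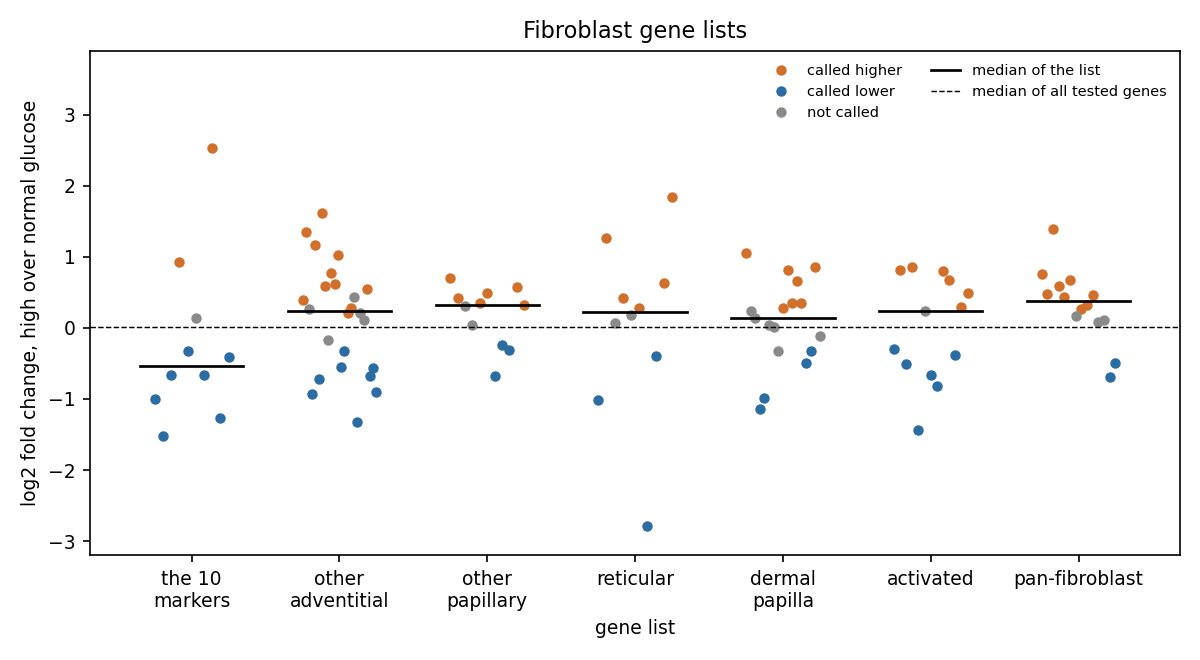
Log2 fold change, high over normal glucose, of the tested genes of each fibroblast list. Points are genes, colored by call, solid bars are list medians and the dashed line is the median of all 19015 tested genes. The median of the 10 markers is -0.53, and those of the other lists lie between 0.14 and 0.38, each with genes on both sides of the line.

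Relatives of the 10 markers by sequence were followed to see whether a family moved together. Of 29 tested relatives 7 were higher, 10 were lower and 12 were not called (median -0.0099). Crabp2, the other retinoic acid carrier, was at 11.7, 9.67 and 11.5 CPM in normal glucose and at 18.4, 21.1 and 19.9 CPM in high glucose. It thus rose (log2 fold change 0.85 ± 0.086, SE, adjusted p = 3.80e-05), whereas Crabp1 fell by 1.52 on the log2 scale. Crabp2 counts were 0.00461 of Crabp1 counts in normal glucose, against 0.0238 in high glucose. Lrig1 was likewise at odds with Lrig2 (0.36, adjusted p = 0.00171) and Lrig3 (0.53, adjusted p = 2.11e-05), both of which were higher. These signs were the same with library size alone, upper quartile and RLE scaling.

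In the S100 family most members had the sign of S100a4. S100a6 fell from 912 ± 161 to 486 ± 10.7 CPM (log2 fold change -0.91), and S100b (-0.90), S100a10 (-0.57), S100a13 (-0.52) and S100a1 (-0.38) were also called lower. S100a11, at 215 CPM in normal glucose and 217 CPM in high glucose, and S100a16, with a log2 fold change of -0.11 (adjusted p = 0.201), were not called. However, S100a16 was called lower with library size alone (adjusted p = 0.0142) and without normal glucose replicate 2 (0.0250). No tested S100 gene was called higher under any of the 4 scalings.

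Of the peptidase relatives of Dpp4 and Fap, Dpp8 (log2 fold change 0.087), Dpp9 (0.0018) and Prep (-0.0099), all intracellular prolyl peptidases, were not called. With the GC and length trend removed, however, Prep (-0.22, adjusted p = 0.0107) and Dpp9 (-0.11, adjusted p = 0.0496) were called lower. The lysosomal Dpp7 was lower (-0.24, adjusted p = 0.0105). Dpp6, a relative without peptidase activity that modulates potassium channels, was higher (1.15, adjusted p = 3.11e-04) at a low level, 0.919 CPM in normal glucose and 2.04 CPM in high glucose. In the Ly6 family, Ly6c1 was called higher (0.20, adjusted p = 0.0143), but not without high glucose replicate 1 (0.0955) or 3 (0.120), nor with library size alone (0.216). Ly6c2 (0.20) and Ly6k (0.21) were not called, but Ly6k was called higher with the GC and length trend removed (0.29, adjusted p = 0.0335). Ly6e was called lower (-0.17, adjusted p = 0.0465), a call lost with the replicate block (0.0884) and without normal glucose replicate 3 (0.0619) or high glucose replicate 1 (0.128), 2 (0.0876) or 3 (0.0844). Podxl2, a sialomucin gene related to Cd34, was higher (0.95) where Cd34 was lower, and of the relatives of Pi16 with a CAP domain, Crispld1 fell by 0.71 (5.41 to 3.30 CPM), Crispld2 rose by 0.43 (97.1 to 131 CPM, adjusted p = 1.98e-04), and Glipr1 (-0.36) and Glipr2 (0.12) were not called. With library size alone Glipr1 was called lower (adjusted p = 0.0343), as it was without normal glucose replicate 3 (0.0470), and with the GC and length trend removed Glipr2 was called higher (0.0476). Crispld2, Glipr1, Glipr2 and Dpp6 were named after their values were seen.

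Markers of the other cells that such a culture could hold were followed too. Among the 16 endothelial markers 10 were tested, 2 were higher and 3 were lower. The 2 that were higher, named after their values were seen, were the angiopoietin receptor gene Tek (0.66, 1.29 to 2.04 CPM) and the transcription factor gene Erg (1.45, 2 to 15 counts). Erg was called without normal glucose replicate 2 (adjusted p = 0.0413), but not without normal glucose replicate 1 (0.0926) or 3 (0.138) or high glucose replicate 1 (0.110), 2 (0.139) or 3 (0.0865), and not with the replicate block (0.0576), upper quartile scaling (0.0505) or library size alone (0.0575). Cdh5, encoding VE-cadherin, had counts of 231, 242 and 236 in the normal-glucose cultures and of 130, 91 and 125 in the high-glucose cultures (log2 fold change -1.03), Flt1, a VEGF receptor gene, fell by 0.53, and Kdr, encoding the main VEGF receptor, was not called (0.15, adjusted p = 0.252). Egfl7 was called lower (-0.23), but not with the replicate block (0.0666) nor without normal glucose replicate 3 (0.0847) or high glucose replicate 1 (0.0790), 2 (0.0627) or 3 (0.0980). All the endothelial markers together had 74.0 to 77.2 CPM in normal glucose and 57.2 to 57.8 CPM in high glucose. Cd34 had 89.7 to 91.2 CPM in normal glucose, above that sum, and 44.3 to 46.7 CPM in high glucose, below it. These values are not scaled by length, and which cells the Cd34 RNA came from was not tested. For the 6 lymphatic endothelial markers, which bear on Pdpn, the sum was 6.69 to 7.89 CPM in normal glucose and 7.78 to 8.65 CPM in high glucose, and of the 3 tested 1 was called lower. This was Reln (-0.79, 21 to 51 counts, named after its values were seen), whose call was lost with the replicate block (adjusted p = 0.0639) and without normal glucose replicate 2 (0.0660) or 3 (0.0852) or high glucose replicate 2 (0.0664) or 3 (0.120).

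T cell markers, which bear on Thy1, were at 0 counts in all cultures for 4 of 6 genes, Cd3e, Cd3d, Cd3g and Cd8a, and summed to at most 0.0946 CPM. The 10 macrophage markers, of which 6 were tested, 1 was higher and 3 were lower, summed to 17.5 to 19.9 CPM in normal glucose and 26.9 to 27.9 CPM in high glucose. The gene that was higher was Cd14, the lipopolysaccharide coreceptor, at 9.47 and 21.1 CPM (log2 fold change 1.16). The CSF1 receptor gene Csf1r fell from 5.62 to 3.38 CPM (-0.73), and the mannose receptor gene Mrc1 (-1.41) was lower at 9 to 41 counts. Cd68 was called lower (-0.46), but not with the replicate block (adjusted p = 0.0903), with the GC and length trend removed (0.0714), or without normal glucose replicate 2 (0.0867) or 3 (0.150) or high glucose replicate 2 (0.121) or 3 (0.146). Cd68 and Mrc1 were named after their values were seen. The defining C1qb had 0 counts in all cultures, C1qa at most 3, Adgre1 at most 3 and Ptprc at most 16.

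Mural cell markers, of which 2 were higher and 3 lower among 7 tested, summed to 33.0 to 38.7 CPM in normal glucose and 30.4 to 33.5 CPM in high glucose. The pericyte proteoglycan gene Cspg4 (-0.91) and Mcam (-0.34) were lower. Des was called lower too (-0.71, 61 to 123 counts), but not without high glucose replicate 1 (adjusted p = 0.0518). Those that were higher were Rgs5 (1.20, 69 to 222 counts) and Abcc9 (0.84, 23 to 57 counts). The call of Abcc9 was lost without normal glucose replicate 2 (0.0541) or high glucose replicate 1 (0.0939). Des, Rgs5 and Abcc9 were named after their values were seen. Schwann cell markers summed to 143 to 158 CPM and 186 to 191 CPM, most of it the neurotrophin receptor gene Ngfr (0.42). Sox10, a neural crest transcription factor gene, was called lower (-0.36), but not without normal glucose replicate 3 (adjusted p = 0.0764) or high glucose replicate 1 (0.0649) or 2 (0.0637). Keratinocyte markers summed to 6.29 to 7.15 CPM and 6.17 to 6.62 CPM, with 1 of 5 tested higher and 1 lower. The keratin gene Krt5, named after its values were seen, had 2 counts in each normal-glucose culture and 12 to 23 counts in high glucose. The part of these cells in the changes of the 10 markers was not tested.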

How the data were processed

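RNA was sequenced from 6 cultures, 3 in normal and 3 in high glucose, grouped by their titles. The labels name TRIzol and the DNBSeq platform, whereas the methods of the study name another RNA kit and an Illumina HiSeq. After trimming (Trimmomatic) and alignment to GRCm38 (HISAT2), the authors obtained a count per gene with StringTie and deposited these raw counts. Tool versions, the annotation and the use of strand are not given in the sources used here, and counts may include both reads of a pair. The study counts replicates as mice but pools 4 to 6 mice for an isolation, and no source used here ties a culture to its isolation, so p values measure the spread between these samples, which may be technical in part. Floors cover counting error only, whereas intervals of fold changes include the spread between cultures.

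Symbols were found for 55141 of 55487 identifiers. The analysis used edgeR 4.0.16 under R 4.3.3, with low counts removed by filterByExpr (at least 10 in enough samples and 15 in total), TMM scaling, the quasi-likelihood test over 19015 genes and Benjamini-Hochberg adjustment with a threshold of 0.05. SEs were taken from the test statistic. RPKM used the exon union of GENCODE on GRCm38, the source of the gene positions. The fit was tested on simulated counts. The 10 markers and all gene lists were chosen with earlier results of these data known. Named genes were the 10 markers; from each other list up to 3 called higher and up to 3 called lower with the largest log2 fold change and a mean log2 CPM of at least 1; every such dipeptidyl peptidase, Ly6, Crabp, Lrig and S100 relative; and Pecam1, Cdh5 and Kdr. A gene that this rule names is not reported here. The 21 alternatives included other scalings, filters, tests (limma-voom with limma 3.58.1, DESeq2 1.42.0), a replicate block, each culture left out, and a GC and length trend removed with mgcv 1.9.3.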

Additional observations from a re-analysis of the deposited data

How the results depend on the processing

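Over 21 alternative settings, 2 of them chosen after seeing the data, all 209 log2 fold changes of the 10 markers kept their direction and 197 kept their side of the threshold. Pi16 ranged from 2.42 to 2.54, Crabp1 from -1.63 to -1.45 and Fap from 0.81 to 0.98. Dpp4, with 53 to 114 counts, was the least certain: with 1 culture left out its value ranged from -0.78 to -0.48 and the call was lost for 4 of 6 cultures, it was -0.66 but not called at an adjusted p under 0.01, and it was not tested under a filter of 1 CPM in 3 samples. Correlations of same-numbered cultures' deviations from their group means were -0.025, 0.0038 and 0.013, and those of other pairs ran from -0.043 to 0.041. Deviations from a mean of 3 cultures cannot show whether same-numbered cultures shared an isolation, so pairing remained unknown. With the replicate block Dpp4 was -0.65 (adjusted p = 0.0620) and 6 markers were called lower, and the block changed the call of no other marker. With a GC and length trend removed, Ly6a was called (0.22, adjusted p = 0.00292), also with the replicate block (0.22, adjusted p = 0.00699), where Dpp4 was -0.68 (adjusted p = 0.0527). Tested against a log2 fold change of 0.5 (glmTreat), 4 markers were called lower, and Dpp4 (-0.66), Lrig1 (-0.33) and Thy1 (-0.40) were not called. Of all calls, 46.2% were lower with TMM, 56.5% with upper quartile scaling and 72.9% with library size alone, which shifted the median of all genes to -0.11, while 2 markers were called higher and 7 lower under each. Of 588 counts per gene list, 527 stayed within 1.5 times the main count. For genes under 1 CPM depth limits what can be called.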
